A study of Mus musculus with 18 samples.

Results

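Microglia are the resident macrophages of the brain, and they read their surroundings and clear debris through a small set of surface receptors and secreted recognition proteins. The genes described here are 10 that are commonly used to recognise these cells or that encode their phagocytic receptors: Cx3cr1, Csf1r, C1qa, C1qb, C1qc, Trem2, Tyrobp, Aif1, Mertk and Axl. They were chosen by symbol, as every probe set that the platform annotation assigns to one of them, which gave 17 probe sets for 10 of the 12393 genes named on the array. Csf1r and C1qb had 3 probe sets each, Cx3cr1, Trem2 and Axl had 2 each, and the other genes had 1. Of several probe sets the one with the strongest mean signal stood for the gene, and a gene was tested where 3 or more arrays had it at or above their 40th percentile. By this rule 9 of the 10 genes were among the 8320 genes tested. Aif1 was not, since it lay between 4.67 and 5.27 on the log2 scale and reached the percentile, which was 6.30 to 6.40, on 0 of 18 arrays.

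The arrays measured RNA of the cerebellum of adult male mice, 80 ± 5 days old, that differed in apolipoprotein D, a secreted lipid-binding protein. The 6 groups were ApoD knock-out mice given paraquat, knock-out mice given saline, ApoD transgenic mice given paraquat, transgenic mice given saline, wild-type mice given paraquat and wild-type mice given saline. Paraquat, a redox-cycling herbicide used to impose oxidative stress, was injected once into the peritoneal cavity at 30 mg/kg in 200 µl of saline, and the other mice received saline alone. The transgenic line carries human ApoD and, per the series text, over-expresses it in neurons. The promoter of the transgene is not given in the sources used here. Tissue was taken 6 h after the injection from 9 mice per group, and equal amounts of RNA of 3 mice made up each of the 3 arrays of a group. Whether a mouse received saline is read from the protocol for the arrays whose titles name no paraquat. The spread between arrays is therefore a spread between pools of mice.

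Mouse Apod checked the labels in part. Its log2 signal was 9.16 to 9.83 in knock-out paraquat and 8.22 to 8.50 in knock-out saline, 12.1 to 12.3 in transgenic paraquat and 12.2 to 12.4 in transgenic saline, against 12.5 to 12.8 in wild-type paraquat and 12.4 to 12.5 in wild-type saline. The knock-out arrays were below every other array, while the probe set did not read the human transgene as a rise. Genes of Purkinje cells (Pcp2, Calb1, Car8), granule cells (Gabra6, Neurod1, Zic1), oligodendrocytes (Mbp, Mog) and astrocytes (Slc1a3, Gfap, Aqp4) were above the 40th percentile on all 18 arrays. Array 2 of knock-out paraquat stood apart from the rest by its median and correlation, and array 3 of both transgenic groups by the pyruvate carboxylase control. The median was 6.98 on array 2 of knock-out paraquat and 7.10 to 7.15 on the other 17, and its mean correlation with the others was 0.971, against 0.986 to 0.993. Array 3 of the transgenic groups had the smallest 3′ to 5′ differences of the pyruvate carboxylase control, 1.95 under paraquat and 1.82 under saline, with 2.25 to 3.16 elsewhere. Values without these arrays are given beside the results whose call or size they moved most. The signal of 18S RNA was lowest on array 2 of transgenic paraquat and array 3 of both transgenic groups, at 6.59 on each. It was 7.09 on array 2 of transgenic saline and at least 7.46 elsewhere. Leaving out array 3 of both transgenic groups therefore does not remove every transgenic array with a low 18S signal.

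CX3CR1 is the microglial receptor for fractalkine (Cx3cl1), a chemokine that neurons present on their surface, and it is held to keep microglia in a surveying state. CSF1R is the growth factor receptor on which microglia depend for survival. TREM2 binds lipids and lipoproteins and signals through the adapter TYROBP, and C1QA, C1QB and C1QC assemble into C1q, the recognition unit of the classical complement pathway, which in the mouse brain is made mainly by microglia. AIF1 (IBA1) is a cytoplasmic actin-binding protein widely used as a microglial stain. MERTK and AXL belong, with TYRO3, to the TAM family of receptor tyrosine kinases, which bind phosphatidylserine on dying cells through the bridging proteins GAS6 and protein S. MERTK is present on astrocytes as well as microglia in the mouse brain. Csf1r, C1qa, C1qb, C1qc, Trem2, Tyrobp and Aif1 serve below as the genes that follow how much microglial RNA a sample holds. In a whole-tissue sample, fewer cells of a type and less RNA per cell cannot be told apart.

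In the fit of all 18 arrays Mertk and Cx3cr1 were the 2 members whose RNA differed between paraquat and saline past the threshold of an adjusted p of 0.05, so the regions before their start sites are shown as the sequence that belongs to the finding. The windows run from 250 bases before to 50 bases after the start site in RefSeq's annotation of the GRCm38.p6 build, which holds windows for 7 of the 10 genes. The Cx3cr1 window lies on the minus strand at chr9:120068247-120068546, and the Mertk window on the plus strand at chr2:128698665-128698964. Capitals in the Mertk window mark the GC box GGGCGG, read on either strand. The GC box was chosen for display after the sequences had been seen.
Cx3cr1: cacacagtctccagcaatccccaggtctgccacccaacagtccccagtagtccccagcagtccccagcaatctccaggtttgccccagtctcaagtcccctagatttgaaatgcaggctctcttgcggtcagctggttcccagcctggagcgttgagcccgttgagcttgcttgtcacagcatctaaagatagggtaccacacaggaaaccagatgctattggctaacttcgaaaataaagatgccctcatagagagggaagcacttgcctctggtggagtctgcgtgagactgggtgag
Mertk: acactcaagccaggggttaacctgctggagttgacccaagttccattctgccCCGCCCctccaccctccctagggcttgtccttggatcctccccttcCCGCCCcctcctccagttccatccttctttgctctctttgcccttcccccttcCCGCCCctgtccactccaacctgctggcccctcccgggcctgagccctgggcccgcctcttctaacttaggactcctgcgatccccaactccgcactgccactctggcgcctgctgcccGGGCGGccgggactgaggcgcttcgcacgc
The Mertk window was 66% G or C with 14 CpG steps and held 4 GC boxes, at -198, -152, -99 and 21 relative to the start site. That of Cx3cr1 was 54.3% G or C with 5 CpG steps and 0 GC boxes. Among 32851 windows of the same length, the median content of G or C was 52.7%, the upper quartile was 61.7%, and 35.7% held at least 1 GC box. Both strands were also searched for AGAACA, the half-site of the glucocorticoid receptor, and GAGGAA, the core bound by PU.1, a transcription factor of macrophages. Neither window held either set of letters, which 19% and 28.3% of all windows hold.

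Mertk, which the array reads with a single probe set, rose under paraquat in knock-out and wild-type cerebellum. Its log2 signal on arrays 1, 2 and 3 was 9.31, 9.18 and 9.19 in knock-out paraquat, against 8.10, 8.17 and 8.21 in knock-out saline. In wild-type mice it was 9.26, 9.56 and 9.50 under paraquat, against 8.11, 8.08 and 8.21 under saline. All 6 paraquat arrays of these genotypes lay about 1 log2 unit above all 6 saline arrays, with no overlap. The log2 fold change was 1.07 (SE 0.14, n = 3 each, adjusted p 1.04e-04), or 2.10-fold, in knock-out mice and 1.31 (SE 0.14, n = 3 each, adjusted p 6.59e-06), or 2.48-fold, in wild-type mice. With array 2 of knock-out paraquat left out the knock-out value was 1.09 (SE 0.15, adjusted p 5.52e-04). The paraquat effect in knock-out minus that in wild-type was -0.24 (95% confidence interval -0.64 to 0.16, adjusted p 0.87), so that a difference between these genotypes was not detected.

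In transgenic cerebellum the Mertk values were 8.34, 8.42 and 7.75 under paraquat, against 7.78, 7.93 and 7.73 under saline. The first and second paraquat arrays were above all 3 saline arrays, and the third lay among them. The log2 fold change was 0.36 (95% confidence interval 0.07 to 0.64), with an unadjusted p of 0.0168 and an adjusted p of 1.00. Without array 3 of both transgenic groups it was 0.52 (SE 0.12, adjusted p 0.18), and with weights estimated per array it was 0.48 (adjusted p 0.00889), which passed the threshold. The effect in transgenic minus that in wild-type was -0.95 (SE 0.19, adjusted p 0.0482), one of 15 genes called in that comparison. That call was lost in 18 of 25 alternatives, with adjusted p up to 0.18 and log2 values of -1.08 to -0.74, and without array 3 of both transgenic groups the difference was -0.78 (adjusted p 0.0689).

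**Figure D1:**
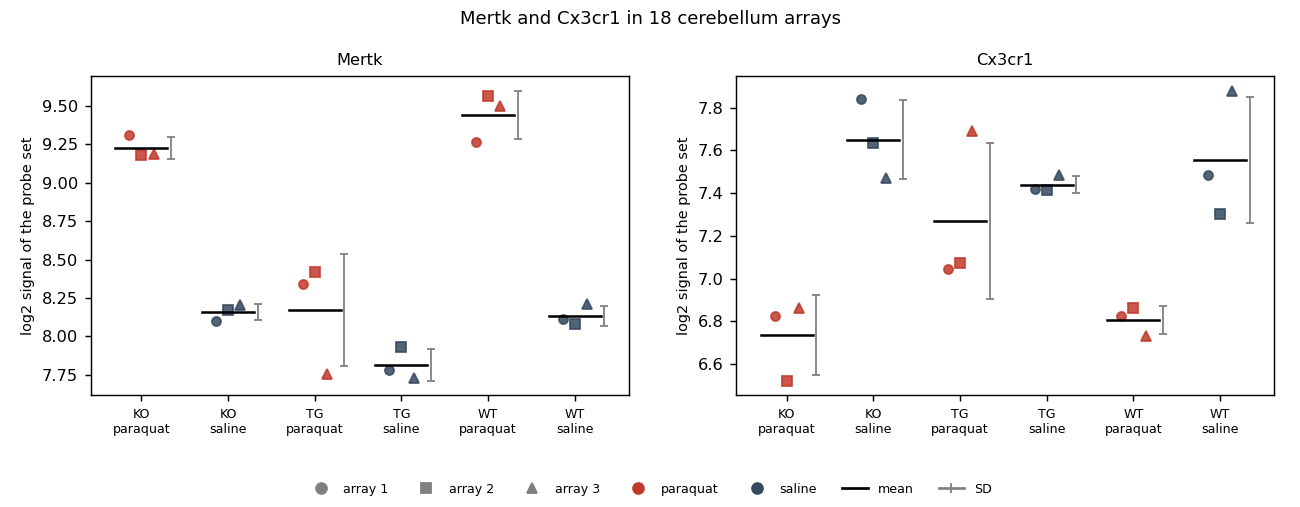
Log2 signal of Mertk (left panel) and Cx3cr1 (right panel) on the 18 arrays, by genotype (KO, knock-out; TG, transgenic; WT, wild-type) and treatment. Red symbols are paraquat and dark symbols saline arrays, the symbol shape gives the array number, black lines are means and grey bars are SD (n = 3). In KO and WT the paraquat arrays stand above the saline arrays for Mertk and below them for Cx3cr1, whereas the third TG paraquat array lies among or above the saline arrays.

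Cx3cr1 fell under paraquat in the same 2 genotypes. Its log2 signal on arrays 1, 2 and 3 was 6.83, 6.52 and 6.86 in knock-out paraquat, against 7.84, 7.64 and 7.47 in knock-out saline. In wild-type mice it was 6.83, 6.86 and 6.73 under paraquat, against 7.49, 7.30 and 7.88 under saline. Again the paraquat and saline arrays did not overlap, although the saline arrays of each genotype spread over more than the paraquat arrays of wild-type mice. The log2 fold change was -0.91 (SE 0.16, n = 3 each, adjusted p 0.00415), a level 1.88-fold lower, in knock-out mice and -0.75 (SE 0.16, n = 3 each, adjusted p 0.0152), or 1.68-fold lower, in wild-type mice. With array 2 of knock-out paraquat left out the knock-out value was -0.81 (adjusted p 0.0205). The wild-type call was lost when array 1 or 3 of wild-type saline or array 1 or 3 of wild-type paraquat was left out, with log2 values of -0.88 to -0.59 over the single arrays left out and adjusted p up to 0.13.

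The second Cx3cr1 probe set read a weaker signal, which never reached the 40th percentile. It gave 4.95, 4.77 and 4.63 in knock-out paraquat, against 5.46, 5.48 and 5.43 in knock-out saline, and 4.86, 4.88 and 4.71 in wild-type paraquat, against 5.35, 5.34 and 5.21 in wild-type saline. In these genotypes the groups were apart in the same direction as for the first probe set. In a fit across all 22626 probe sets without a filter its log2 fold changes of -0.67 and -0.49 did not pass the threshold, with adjusted p of 0.20 in knock-out and 0.62 in wild-type mice. That fit called 0.632% of probe sets in knock-out, 0% in transgenic and 0.853% in wild-type mice.

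In transgenic cerebellum Cx3cr1 was at 7.05, 7.07 and 7.69 under paraquat, against 7.42, 7.42 and 7.49 under saline. The first and second paraquat arrays were below the saline arrays and the third was above them, so that the groups overlapped. The log2 fold change was -0.17 (95% confidence interval -0.51 to 0.17, adjusted p 1.00), and it was -0.36 (SE 0.17, adjusted p 1.00) without array 3 of both transgenic groups. The effect in transgenic minus that in wild-type mice was 0.58 (95% confidence interval 0.10 to 1.06, adjusted p 0.84), and that in knock-out minus wild-type was -0.16 (-0.65 to 0.32, adjusted p 0.87). Neither difference passed the threshold.

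Against these 2 genes stand the markers of microglial RNA. Csf1r, C1qa, C1qb, C1qc, Trem2 and Tyrobp were tested, and 0 of the 6 were called under paraquat in knock-out, transgenic or wild-type mice or in the mean of the 3 genotypes. Of all genes, 2.26% were called in knock-out, 0% in transgenic and 2.0% in wild-type mice, and 4.89% in the mean. At such shares a count of 0 of 6 does not set the markers apart from other genes. The log2 fold changes of the 6 markers ran from -0.13 (Csf1r) to 0.12 (C1qb) in knock-out mice, from -0.16 (C1qc) to 0.04 (C1qb) in transgenic mice and from -0.28 (Trem2) to 0.20 (C1qa) in wild-type mice. These ranges use only the probe set that stood for each gene, and the remaining C1qb probe sets were below 0 in knock-out and transgenic mice. Without array 2 of knock-out paraquat the knock-out range was -0.27 (Trem2) to 0.14 (C1qb), with Tyrobp at -0.22 and C1qc at 0.09, and 0 of the 6 were called. Without array 3 of both transgenic groups the transgenic range was -0.15 (Tyrobp) to 0.14 (C1qb), with 0 called. With all arrays, the widest reach of their 95% confidence intervals was -0.42 to 0.38 in knock-out, -0.47 to 0.29 in transgenic and -0.57 to 0.47 in wild-type mice. The knock-out and wild-type intervals of Mertk, and the knock-out interval of Cx3cr1 (-1.25 to -0.57), lay wholly outside those limits. The wild-type change of Cx3cr1 lay outside them as well, but its interval (-1.09 to -0.41) overlapped them. A miss of the threshold does not show that these markers were unchanged. With array weights 2 of the 6 were called in wild-type mice, C1qa at 0.22 and Trem2 at -0.28, where 1059 of all 8320 genes were called. In knock-out mice that setting also called 2 of the 6, Trem2 at -0.25 and Tyrobp at -0.26, where 2173 of all 8320 genes were called.

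The count of members called under paraquat is read against the background of all genes. In knock-out mice 1 of 9 tested members was higher and 1 lower, where 0.793% of all genes were called higher, 1.47% lower and 2.26% in either direction. In transgenic mice 0 of 9 were called, where limma called 0% of all genes and 118 genes had an unadjusted p under 0.05. In wild-type mice 1 was higher and 1 lower, where 1.53% were higher, 0.469% lower and 2.0% in either direction. Averaged over the genotypes 1 was higher and 1 lower, where 2.01% were higher, 2.88% lower and 4.89% in either direction, with Mertk at 0.91 (SE 0.08, adjusted p 4.07e-07) and Cx3cr1 at -0.61 (SE 0.09, adjusted p 3.84e-04). The median log2 fold change of the 9 members was -0.11 in knock-out, -0.06 in transgenic and -0.02 in wild-type mice, against -0.09, -0.03 and 0.02 for all genes tested in those genotypes.

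**Figure D2:**
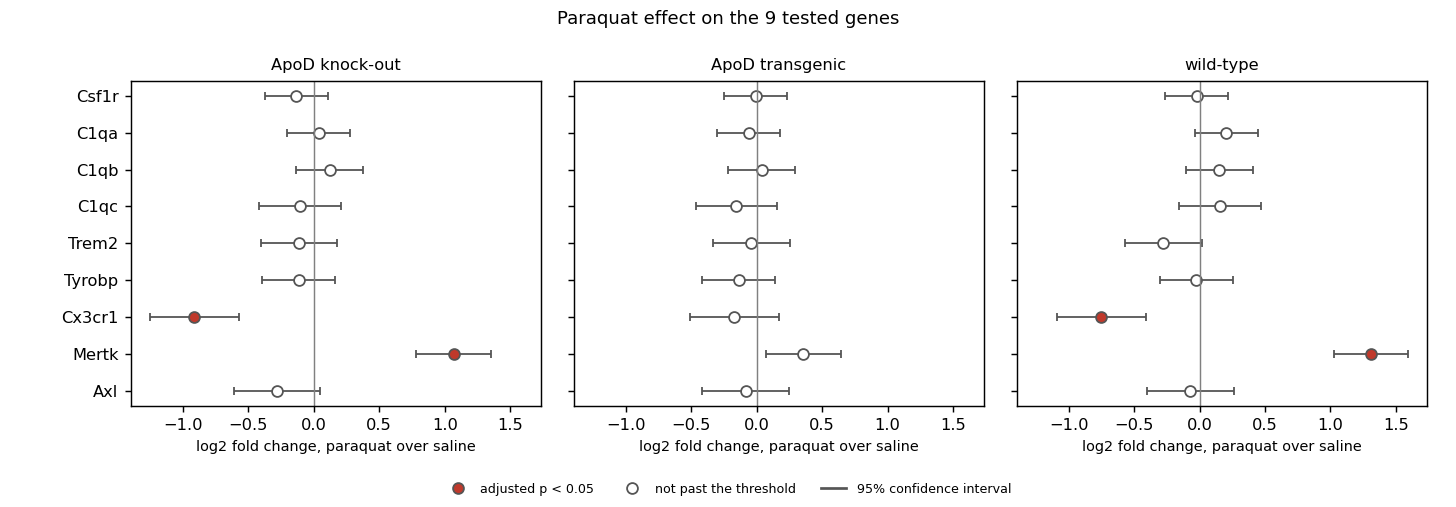
Log2 fold change of paraquat over saline for the 9 tested genes in knock-out, transgenic and wild-type cerebellum, with 95% confidence intervals from limma. Filled symbols passed an adjusted p of 0.05. Cx3cr1 (-0.91 and -0.75) and Mertk (1.07 and 1.31) passed it in knock-out and wild-type mice, and the other 7 genes lay between -0.28 and 0.20.

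Csf1r was at 10.12, 10.02 and 9.97 in knock-out paraquat, against 10.21, 10.18 and 10.12 in knock-out saline, at 10.32, 9.91 and 9.86 in transgenic paraquat, against 10.11, 9.88 and 10.12 in transgenic saline, and at 10.12, 10.21 and 10.03 in wild-type paraquat, against 10.12, 10.12 and 10.20 in wild-type saline. Over all 18 arrays it spanned 0.46, and the groups overlapped in all 3 genotypes. Its other 2 probe sets had log2 fold changes of -0.32 and -0.13 in knock-out, -0.06 and -0.01 in transgenic and -0.10 and -0.06 in wild-type mice, none past the threshold in the fit of all probe sets.

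C1qa, the first chain of C1q, was at 9.0, 8.70 and 8.93 in knock-out paraquat, against 8.79, 8.84 and 8.88 in knock-out saline, at 8.66, 8.73 and 8.89 in transgenic paraquat, against 8.61, 8.82 and 9.04 in transgenic saline, and at 9.22, 9.01 and 9.15 in wild-type paraquat, against 8.87, 8.90 and 9.01 in wild-type saline. The wild-type groups lay next to each other without overlap, at a log2 fold change of 0.20 (95% confidence interval -0.04 to 0.44, adjusted p 0.65). C1qb moved by 0.12, 0.04 and 0.15 and C1qc by -0.11, -0.16 and 0.16 in knock-out, transgenic and wild-type mice, with overlap of the groups in each. The remaining C1qb probe sets gave -0.12 and -0.03 in knock-out, -0.02 and -0.24 in transgenic and 0.03 and 0.12 in wild-type mice. Their signs were thus opposite to that of the first in knock-out and transgenic mice. None passed the threshold in the fit of all probe sets. Array 2 was the lowest of the knock-out paraquat arrays on both, at 7.54 and 7.50. The lowest C1qc value, 7.18, was that of the second knock-out paraquat array, and the other 17 arrays lay between 7.59 and 8.13. Without it the knock-out difference of C1qc was 0.09.

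Trem2 had the weakest signal of the tested members relative to the filter, reaching the percentile on 15 of 18 arrays. It was at 6.40, 6.86 and 6.38 in knock-out paraquat, against 6.74, 6.55 and 6.68 in knock-out saline, at 6.15, 6.41 and 6.44 in transgenic paraquat, against 6.09, 6.41 and 6.62 in transgenic saline, and at 6.39, 6.28 and 6.53 in wild-type paraquat, against 6.69, 6.68 and 6.67 in wild-type saline. In wild-type mice every paraquat array was below every saline array, and the change of -0.28 (SE 0.14, adjusted p 0.55) passed the threshold with array weights and when only the wild-type arrays were fitted (adjusted p 0.0379). The second Trem2 probe set, which never reached the percentile, gave 0.19, 0.27 and -0.15 in knock-out, transgenic and wild-type mice, so that the 2 probe sets had opposite signs in knock-out and transgenic mice. In knock-out paraquat it was at 6.03 on array 2 and at 4.96 and 5.00 on the other arrays. With that array left out, the knock-out difference of the first Trem2 probe set was -0.27 (adjusted p 0.43). Tyrobp, the adapter of TREM2, was at 7.86, 8.27 and 8.04 in knock-out paraquat against 8.23, 8.17 and 8.12 in knock-out saline. It differed by -0.12, -0.14 and -0.03 in knock-out, transgenic and wild-type mice, its groups overlapped in each, and without array 2 of knock-out paraquat the knock-out value was -0.22 (adjusted p 0.58). Aif1, below the filter, had group means of 5.01 in knock-out paraquat and 5.13 in knock-out saline, 4.93 in transgenic paraquat and 4.93 in transgenic saline, and 5.05 in wild-type paraquat and 5.21 in wild-type saline.

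Cx3cr1 and Mertk were then set against the mean log2 signal of the 7 marker genes on the same array, Aif1 included. The marker mean was 7.82 ± 0.02 in knock-out paraquat and 7.88 ± 0.02 in knock-out saline, 7.74 ± 0.08 in transgenic paraquat and 7.79 ± 0.16 in transgenic saline, and 7.96 ± 0.03 in wild-type paraquat and 7.95 ± 0.06 in wild-type saline (SD, n = 3 each). The paraquat and saline arrays overlapped in transgenic and wild-type mice and lay 0.06 apart without overlap in knock-out mice. Relative to that mean, Cx3cr1 differed by -0.85 between paraquat and saline in knock-out, -0.12 in transgenic and -0.75 in wild-type mice. Mertk differed by 1.13, 0.41 and 1.31 in the same order. In knock-out and wild-type mice the paraquat and saline arrays did not overlap for either gene. The marker mean itself differed by -0.06 in knock-out, -0.05 in transgenic and 0.0020 in wild-type mice, and it averages genes that differed in both directions, so the subtraction could change little and is no correction for the amount of microglial RNA. In transgenic mice they overlapped for both genes, and without array 3 of both transgenic groups the values were -0.36 for Cx3cr1 and 0.52 for Mertk.

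**Figure D3:**
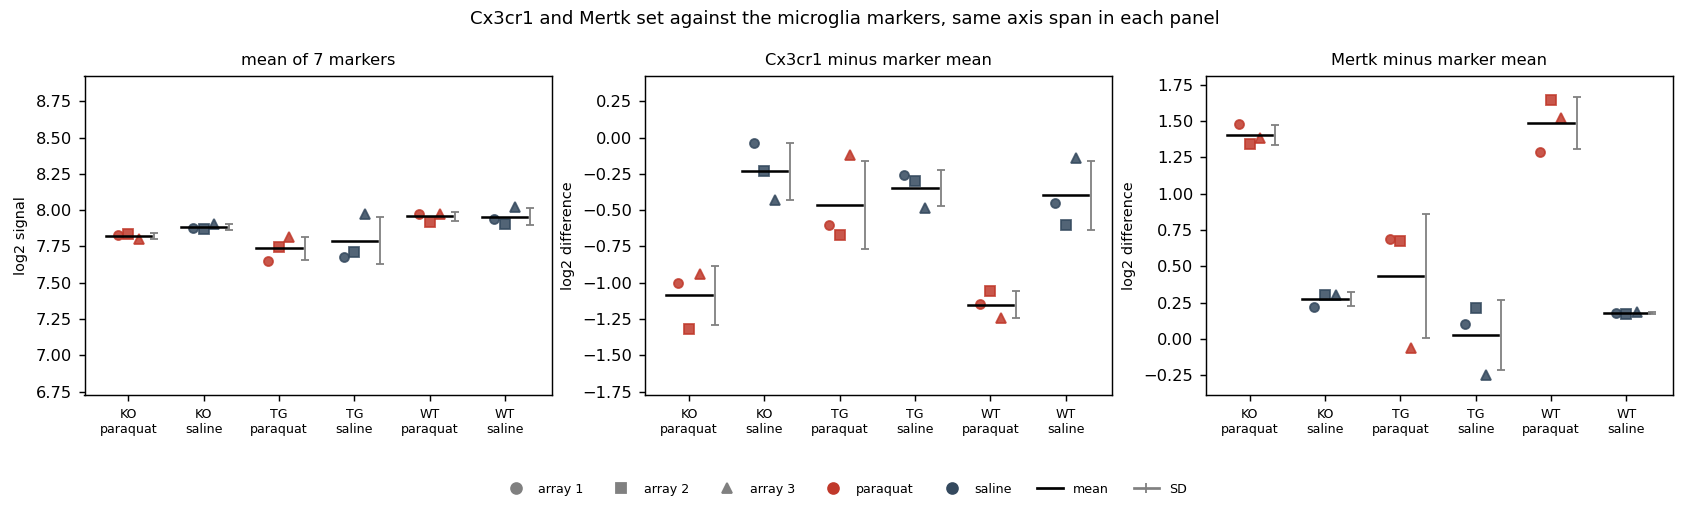
Mean log2 signal of the 7 microglia markers (left), Cx3cr1 minus that mean (middle) and Mertk minus that mean (right) on the 18 arrays, with the same span of the axis in each panel. Symbols give the array number, red is paraquat, dark is saline, lines are means and bars SD (n = 3). The marker means stay between 7.65 and 8.02, whereas in KO and WT the paraquat arrays leave the saline arrays downward for Cx3cr1 and upward for Mertk.

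Between genotypes, the largest number of members was called between transgenic and wild-type mice under paraquat. In that comparison 4 of 9 tested members were called, 1 higher and 3 lower, where 4.64% of all genes were called higher, 14.3% lower and 19.0% in either direction. Mertk was lower, at a log2 difference of -1.27 (SE 0.14, adjusted p 1.31e-05), with 8.34, 8.42 and 7.75 in transgenic paraquat against 9.26, 9.56 and 9.50 in wild-type paraquat. It kept its call in all 25 alternatives, with log2 values of -1.40 to -1.06. C1qa (-0.37, adjusted p 0.0309) and C1qb (-0.35, adjusted p 0.0497) were also lower, and each lost its call in part of the alternatives, C1qa in 5 and C1qb in 15 of 25. C1qb was at 8.45, 8.44 and 8.58 in transgenic paraquat against 8.67, 8.94 and 8.92 in wild-type paraquat, and its other 2 probe sets pointed the same way (-0.37 and -0.55). All 6 tested markers had values below 0 in this comparison, the others being Tyrobp (-0.31, adjusted p 0.11), C1qc (-0.24, adjusted p 0.27), Csf1r (-0.09) and Trem2 (-0.07). Tyrobp was at 7.70, 7.77 and 8.13 in transgenic paraquat against 8.27, 8.17 and 8.07 in wild-type paraquat, and without array 3 of both transgenic groups it was lower by the test (-0.44, adjusted p 0.0204). The other 2 Csf1r probe sets gave 0.13 and 0.26, and the second Trem2 probe set, which never reached the percentile, gave 0.35, none past the threshold. The shared sign of the 6 markers thus holds for the probe sets that stood for the genes, not for every probe set. The mean of the 7 markers was 7.65 to 7.81 in transgenic paraquat against 7.92 to 7.98 in wild-type paraquat, without overlap, and its part in the Mertk difference was not tested.

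Axl was the member that was called higher in transgenic mice. It was at 8.51, 8.55 and 8.40 in transgenic paraquat, against 7.98, 7.85 and 8.18 in wild-type paraquat, with a log2 difference of 0.49 (SE 0.16, adjusted p 0.0372). Under saline it was at 8.30, 8.58 and 8.85 in transgenic against 8.08, 7.98 and 8.17 in wild-type mice, with a log2 difference of 0.50 (SE 0.16, adjusted p 0.0616). Without array 3 of both transgenic groups the saline difference was 0.37 (adjusted p 0.24). The transgenic arrays lay above the wild-type arrays under both treatments without overlap, and the paraquat effect in transgenic minus that in wild-type mice was -0.02 (95% confidence interval -0.48 to 0.45). The call under paraquat was lost in 6 of 24 alternatives, with adjusted p up to 0.15, and the second Axl probe set, near the lowest signals of the array at 3.55 to 3.99, gave 0.05 under paraquat and 0.15 under saline. Cx3cr1 was 0.46 higher in transgenic paraquat than in wild-type paraquat (adjusted p 0.0519), without overlap of the arrays. It was 0.25 higher (adjusted p 0.27) without array 3 of both transgenic groups. Some alternatives passed the threshold, among them array weights at 0.31 (adjusted p 0.0465) and the mean of its probe sets at 0.48 (adjusted p 0.0380).

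The other comparisons of genotypes called few members or none. Between transgenic and wild-type mice under saline 0 of 9 members passed, although 6.36% of all genes did. The largest log2 differences after that of Axl were -0.32 for Mertk (adjusted p 0.16) and -0.31 for Trem2 (adjusted p 0.19). Between knock-out and wild-type mice 0 of 9 members passed under paraquat, where 0.0120% of all genes did, and 0 of 9 under saline, where 0.0240% did. Unadjusted p-values under 0.05 were found for 1097 genes and 2 members (C1qa and C1qc) under paraquat and for 129 genes and 0 members under saline. C1qc differed by -0.43 between knock-out and wild-type paraquat (adjusted p 0.37), and by -0.23 with array 2 of knock-out paraquat left out. The knock-out minus wild-type differences of Mertk and Cx3cr1 ran from -0.22 to 0.09 over both treatments. For the paraquat effect in knock-out minus that in wild-type mice 0 of 9 members and 0% of all genes passed, while 148 genes had an unadjusted p under 0.05. For that in transgenic minus wild-type mice 1 member was lower, where 0.180% of all genes were lower, 0% higher and 0.180% in either direction. These comparisons share the wild-type arrays, so their calls are not independent of each other.

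**Figure D4:**
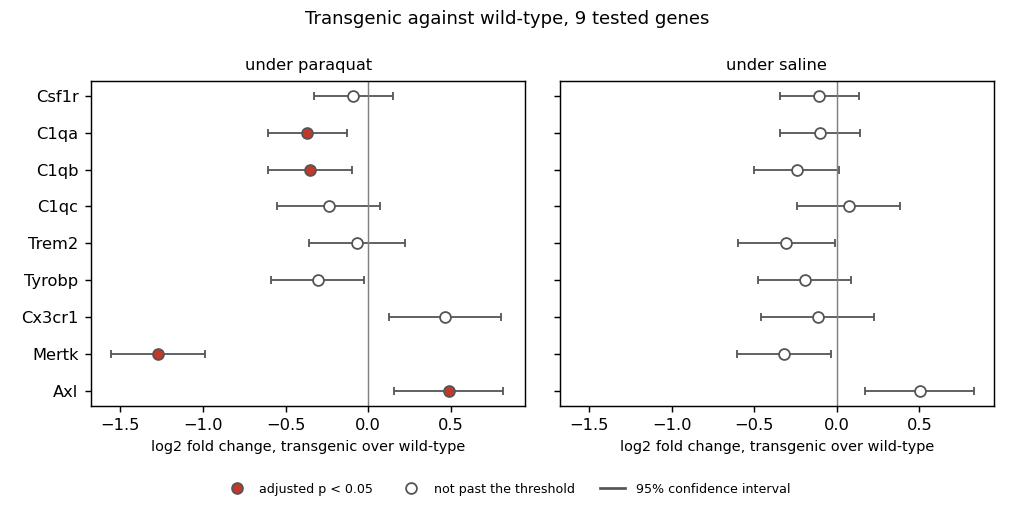
Log2 difference of transgenic over wild-type for the 9 tested genes under paraquat (left) and under saline (right), with 95% confidence intervals from limma. Filled symbols passed an adjusted p of 0.05, which held for C1qa (-0.37), C1qb (-0.35), Mertk (-1.27) and Axl (0.49) under paraquat and for 0 of 9 genes under saline.

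Within the TAM family the 3 receptors did not move together under paraquat. Tyro3, the receptor of the family found mainly on neurons, was at 8.25, 7.67 and 8.67 in knock-out paraquat against 8.89, 8.88 and 8.80 in knock-out saline. In wild-type mice it was at 8.28, 8.02 and 8.32 under paraquat against 8.89, 8.83 and 8.91 under saline. It fell by 0.66 (adjusted p 0.0457) in knock-out and fell by 0.67 (adjusted p 0.0437) in wild-type mice, with no overlap of the groups. The knock-out call was lost in 18 and the wild-type call in 15 of 25 alternatives, and with array 2 of knock-out paraquat left out the knock-out value was -0.40 (adjusted p 0.17). Averaged over the genotypes Tyro3 fell by 0.55 (adjusted p 0.00181), a call kept in all 24 alternatives. Axl, by contrast, changed by -0.28 in knock-out, -0.09 in transgenic and -0.07 in wild-type mice with none called, and its lowest value, 7.42, was that of the second knock-out paraquat array. With it left out the knock-out change of Axl was -0.06.

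**Figure D5:**
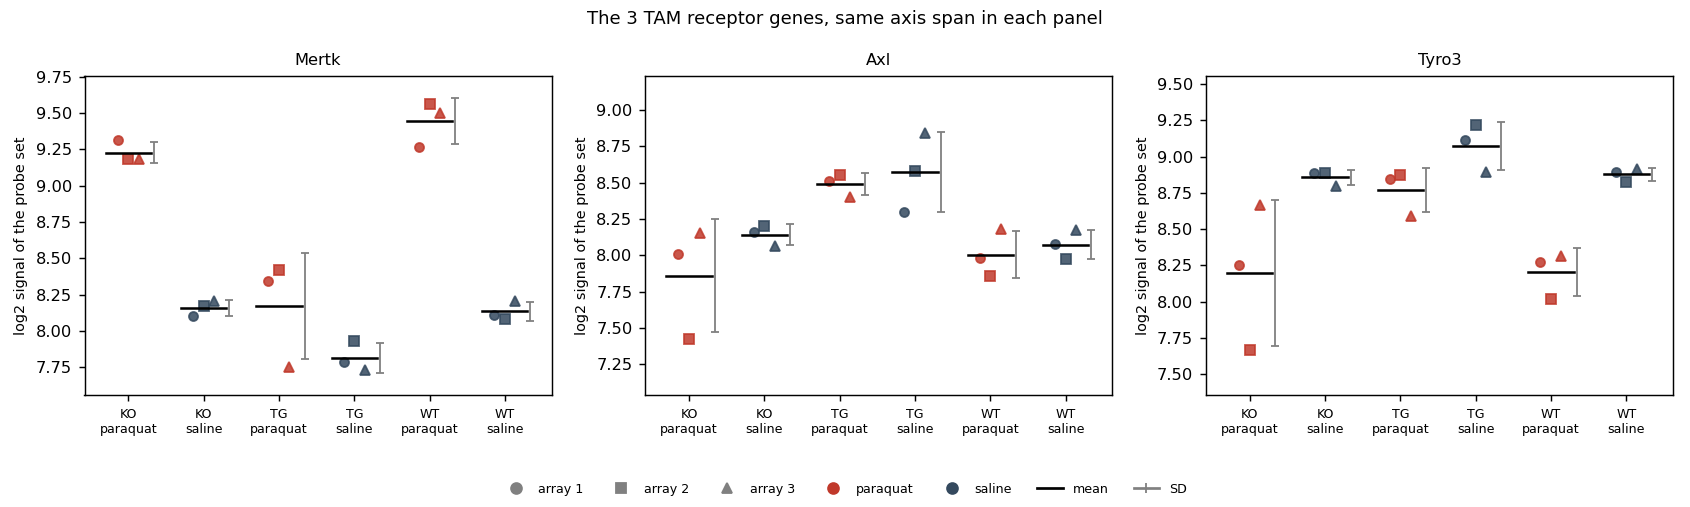
Log2 signal of the TAM receptor genes Mertk, Axl and Tyro3 on the 18 arrays, with the same span of the axis in each panel. Symbols give the array number, red is paraquat, dark is saline, lines are means and bars SD (n = 3). In KO and WT, Mertk is higher and Tyro3 lower under paraquat, while Axl overlaps between treatments and is higher in TG than in WT under both.

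No tested ligand of these receptors was called under paraquat in the fit of all arrays. Of 18 listed ligands, processing enzymes and adapters, 15 were tested, and 0 were called in knock-out, transgenic or wild-type mice. Cx3cl1, the ligand of CX3CR1, changed by -0.30 in knock-out, 0.0047 in transgenic and -0.19 in wild-type mice, and Csf1, a ligand of CSF1R, by -0.22, 0.01 and -0.05. The median of the 15 genes was -0.19, 0.01 and -0.05, against -0.09, -0.03 and 0.02 for all genes. Without array 2 of knock-out paraquat the knock-out values were -0.08 for Cx3cl1 and -0.08 for the median, against 0.01 for all genes. Averaged over the genotypes Adam10, a protease that sheds fractalkine, fell by 0.32 (adjusted p 0.0310), a call lost in 10 of 24 alternatives. Among 20 tested bridging molecules and other phagocytic receptors, of 40 listed, Abca1, which exports cholesterol and is involved in the engulfment of dying cells, rose by 0.51 (adjusted p 0.0286) in knock-out and by 0.55 (adjusted p 0.0154) in wild-type mice, and Tyro3 was the only other call within these genotypes. Averaged over the genotypes Calr, a chaperone that also serves as a signal for engulfment on dying cells, fell by 0.34 (adjusted p 0.0345), a call lost in 12 of 24 alternatives. The other 2 Abca1 probe sets gave smaller changes of the same sign (0.35 and 0.33 in knock-out, 0.32 and 0.19 in wild-type mice). With the mean of its probe sets the knock-out and wild-type calls of Abca1 were lost. Its rise averaged over the genotypes, 0.40 (adjusted p 0.00121), kept its call in all 24 alternatives, with log2 values of 0.31 to 0.48. Gas6, the ligand shared by the TAM receptors, changed by -0.03, -0.01 and 0.13 and Mfge8, a phosphatidylserine bridge, by -0.09, -0.04 and -0.01 in knock-out, transgenic and wild-type mice. The median of this list was -0.19, -0.07 and -0.01, against -0.09, -0.03 and 0.02 for all genes, and the knock-out median was -0.0068 without array 2 of knock-out paraquat.

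Between transgenic and wild-type mice under paraquat the same list held 2 genes that were higher and 2 that were lower of 20 tested, where 4.64% of all genes were higher, 14.3% lower and 19.0% in either direction, so the list's count was near that of all genes. Calr was 0.69 higher (adjusted p 0.00592) and Tyro3 0.57 higher (adjusted p 0.0262). Abca1 was lower (-0.90, adjusted p 1.07e-04), and so was Itgav, an integrin chain that binds Mfge8 (-0.42, adjusted p 0.0476). The other 2 Abca1 probe sets gave -0.04 and 0.37, and the Abca1 difference was -0.19 (adjusted p 0.37) with the mean of its probe sets, and that of Itgav, a call lost in 15 of 25 alternatives, turned to 0.08. Of the 15 ligands and adapters, 3 were lower, Lgals3 (-0.45), Adam10 (-0.49) and Clu (-0.30). Lgals3 kept its call in all 25 alternatives, Clu lost it in 8 and Adam10 in 6. The other 2 Adam10 probe sets gave 0.32 and 0.07, and with their mean the Adam10 difference was -0.03 (adjusted p 0.91). Under saline, Elmo2, which acts in the engulfment pathway upstream of RAC1, was higher by 0.50 (adjusted p 0.0306), and Abca1 was lower (-0.50, adjusted p 0.0208), where 6.36% of all genes passed. These calls were lost in 6 and 5 of 25 alternatives, the other 2 Abca1 probe sets gave 0.16 and 0.26, and with the mean of its probe sets Abca1 was at -0.02 (adjusted p 0.94).

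Of 50 further microglia genes 42 were on the array and 22 were tested, and few of them were called under paraquat. Fcgr3, an activating receptor for immunoglobulin, was at 7.28, 7.60 and 7.21 in knock-out paraquat against 6.89, 7.06 and 7.07 in knock-out saline, and at 7.38, 7.40 and 7.40 in wild-type paraquat against 6.87, 6.93 and 6.99 in wild-type saline. The arrays did not overlap in either genotype. Within single genotypes only the wild-type rise of 0.47 passed the threshold (adjusted p 0.0201), and it was lost in 7 of 25 alternatives. Fcgr3 also rose by 0.25 (adjusted p 0.0202) when averaged over the genotypes, a call lost in 2 of 24 alternatives. P2ry12, a purinergic receptor of surveying microglia, was at 6.66, 5.89 and 6.62 in knock-out paraquat against 7.10, 7.04 and 7.06 in knock-out saline, and at 6.33, 6.58 and 6.42 in wild-type paraquat against 6.97, 7.03 and 6.93 in wild-type saline. It fell by 0.44 (adjusted p 0.0268) when averaged over the genotypes, and Ly86, a cofactor of a Toll-like receptor homologue, fell by 0.31 (adjusted p 0.0303), and these calls were lost in 9 and 10 of 24 alternatives. In single genotypes P2ry12 was at -0.67 (adjusted p 0.0818) in knock-out, -0.10 in transgenic and -0.53 (adjusted p 0.26) in wild-type mice. Without array 2 of knock-out paraquat, the lowest, the knock-out value was -0.43 (adjusted p 0.35), and without array 3 of both transgenic groups the transgenic value was -0.34. Tmem119, a surface marker that sets microglia apart from other macrophages, was at -0.23, 0.04 and -0.0017 in the same order and was not called, with -0.10 in knock-out and 0.24 in transgenic mice without those arrays. The list's median of -0.08, -0.01 and -0.03 stood beside -0.09, -0.03 and 0.02 for all genes.

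Transgenic mice under paraquat had lower levels of 3 of these 22 genes than wild-type mice, a share near the 14.3% of all genes that were lower. They were Fcgr3 (-0.61, adjusted p 9.02e-04), Cd53 (-0.58, adjusted p 0.00300) and the lysosomal protease gene Ctss (-0.56, adjusted p 0.00436), and these calls were kept in all 25 alternatives. Selplg was 0.33 higher (adjusted p 0.0267), a call lost in 5 of 25. Under saline, Ctss was lower (-0.51, adjusted p 0.0214), a call lost in 4 of 25. Of the complement genes outside C1q, 6 of 22 were tested and 0 were called under paraquat in any genotype, with a median of -0.17 in knock-out, -0.10 in transgenic and 0.19 in wild-type mice. The knock-out median was -0.0030, over 5 genes, without array 2 of knock-out paraquat. Serping1, the inhibitor of the first complement proteases, was lower in transgenic than in wild-type mice under paraquat (-0.77, adjusted p 0.00112) and under saline (-0.49, adjusted p 0.0379). The call under paraquat was kept in all 25 alternatives and that under saline was lost in 11, with log2 values of -0.65 to -0.36. Clu was the other gene of that list called under paraquat.

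Markers of other cells that could carry the same genes were read on the same arrays. Of 27 genes of border macrophages and blood leukocytes on the array, 16 never reached the 40th percentile, among them Mrc1, Cd163, Lyve1 and Ccr2, and 0 of the 6 tested were called under paraquat, with a median of -0.08 in knock-out, 0.12 in transgenic and -0.27 in wild-type mice. Without array 2 of knock-out paraquat 1 of 5 was called in knock-out mice, Cd74 at -0.49 (adjusted p 0.00341), and the median was -0.21. The mean of the 27 genes on an array was 5.25 to 5.59 in knock-out paraquat and 5.25 to 5.40 in knock-out saline, 5.24 to 5.31 in transgenic paraquat and 5.22 to 5.28 in transgenic saline, and 5.31 to 5.36 in wild-type paraquat and 5.28 to 5.61 in wild-type saline. Under saline, the class II antigen presentation genes H2-Aa, Cd74 and H2-Eb1 of this list were lower in transgenic than in wild-type mice, at log2 differences of -1.16 (adjusted p 7.08e-04), -0.80 (adjusted p 4.91e-04) and -0.44 (adjusted p 0.0382), and the call of H2-Eb1 was lost in 10 of 25 alternatives. H2-Aa was lower under paraquat as well (-0.69, adjusted p 0.00763). All 24 genes of astrocytes and Bergmann glia on the array were tested. Under paraquat, the gap junction gene Gjb6 rose by 0.73 (adjusted p 0.0180) in knock-out and by 0.82 (adjusted p 0.00754) in wild-type mice, while Sox9, a glial transcription factor, fell by 0.56 (adjusted p 0.00931) in knock-out and fell by 0.45 (adjusted p 0.0398) in wild-type mice. The bicarbonate transporter gene Slc4a4 fell by 0.54 (adjusted p 0.0116) in knock-out mice. Of 25 alternatives, the wild-type call of Sox9 was lost in 11 and that of Gjb6 in 0, and the knock-out calls of Sox9, Gjb6 and Slc4a4 were lost in 2, 4 and 3. The astrocyte list's median was -0.06 in knock-out, -0.01 in transgenic and 0.0012 in wild-type mice, and 0.06 in knock-out mice without array 2 of knock-out paraquat. In transgenic mice 5 of the 24 genes were higher than in wild-type mice under paraquat and 0 were lower, where 4.64% of all genes were higher and 14.3% lower. They were led by Gfap (0.62, adjusted p 0.00952) and S1pr1 (0.56, adjusted p 0.0131), with Slc1a3 (0.51) and Slc1a2 (0.39) next. Without array 3 of both transgenic groups 1 of the 24 was called, Gfap at 0.61 (adjusted p 0.0230). The calls of Slc1a3 and Slc1a2 were lost in 9 and 11 of 25 alternatives, and with the mean of its probe sets Slc1a3 was at 0.08 (adjusted p 0.70). Under saline 2 were higher, Gfap (0.67) and Slc1a2 (0.48), and 0 were called without array 3 of both transgenic groups. The part of these cell types in the Mertk and Cx3cr1 differences was not tested.

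Over the 18 arrays the genes whose log2 signal was most like that of Mertk were Txnip (Pearson r = 0.98), Sgk3 (0.98), Foxo1 (0.97), Klf15 (0.97) and Sult1a1 (0.96). All 5 were higher under paraquat in knock-out and wild-type mice, from 0.73 to 2.04 and from 0.72 to 2.38 on the log2 scale. The genes most like Cx3cr1 were Car2 (0.93), Cxcl12 (0.92), Sox9 (0.92), Creb3l2 (0.91) and Cd44 (0.90). Their log2 fold changes were -1.35 to -0.56 in knock-out and -1.11 to -0.29 in wild-type mice, with Cd44 and Creb3l2 not past the threshold in wild-type mice. Mertk and Cx3cr1 themselves had r = -0.84. The r of Cx3cr1 with the 7 marker genes ran from -0.35 to 0.22 and that of Mertk from -0.09 to 0.58. The markers did not all follow each other either. Csf1r had r of -0.08 to 0.26 with the other markers, and C1qc and Trem2 had -0.19, while C1qa and C1qb had 0.71. A low r with the markers is thus not particular to Cx3cr1. These values describe 18 arrays that share 6 groups, so they carry no p and no count of independent points.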

How the data were processed

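RNA of 18 mouse cerebellum samples was measured on Affymetrix 3′ expression arrays. The authors deposited 1 log2 value per probe set and array, and per the submitters' processing notes they were made with RMA, version not given, which corrects background, normalises by quantiles and summarises probes. That the scale is log2 was read from the range of the values. They are levels, not ratios, and showed no centring by gene, while the release of the software and the set of arrays normalised in 1 run are not given in the sources used here. Column medians ran from 6.98 to 7.15. Scanner files were not analysed here, so the signal over background was not seen, and precision is limited by the number of arrays, with a median half-width of 0.27 for the 95% confidence intervals between 2 groups.

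Gene symbols are those of the platform's annotation, some of which may be outdated. Of 22690 probe sets, 64 were controls, 20380 had 1 symbol, 691 several and 1555 none, and those with several or none were left out. All 10 member identifiers carried the same symbol in RefSeq. A single limma model (version 3.58.1, R 4.3.3, lmFit and eBayes) held the means of 6 groups, with 12 residual degrees of freedom, and 10 comparisons were drawn from it. Adjusted p-values are limma's, two-sided, by Benjamini-Hochberg over 8320 genes within a comparison. Exact permutation of 3 against 3 arrays reaches 0.1 at best and was not used for single genes. The fit was tested on simulated data. Alternatives were a replicate block, quantile normalisation, no filter, array weights, the mean of a gene's probe sets, only the arrays compared and leaving out each array. Leaving out array 3 of both transgenic groups, and the list medians without it or without array 2 of knock-out paraquat, were added after the data had been seen.

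The members and the gene lists were chosen with earlier results of these data known, so that no result is independent of that choice. Genes named are every member, up to 4 called genes per list and comparison with the smallest p, and the 5 genes most correlated with Cx3cr1 and with Mertk. Further list genes (Cx3cl1, Csf1, Gas6, Mfge8, Tmem119 and, in single genotypes, P2ry12 and Fcgr3) are named for their role as ligands or markers.

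Whether equal array numbers pair samples was checked through the correlation of deviations from group means between treatments. It was -0.09, -0.28 and -0.12 for arrays 1, 2 and 3 of knock-out mice, 0.16, 0.13 and 0.42 of transgenic and 0.09, 0.15 and 0.34 of wild-type mice, and the labels mark no shared litter or day, so the numbers were not taken as pairs.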

Additional observations from a re-analysis of the deposited data

Results flagged for a closer look

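The paraquat effect on Mertk differed between genotypes in a test of the difference itself. The log2 fold change of paraquat over saline was 0.36 in transgenic and 1.31 in wild-type cerebellum, and the first minus the second was -0.95 (SE 0.19, limma's adjusted p 0.0482). All 3 wild-type paraquat arrays were above all wild-type saline arrays, and 2 of 3 transgenic paraquat arrays were above all transgenic saline arrays. The adjusted p lay between 5.29e-04 and 0.18 over 25 alternatives, and 18 of them lost the call.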

How the results depend on the processing

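Among the alternatives run, Mertk kept its call in knock-out mice, wild-type mice, the mean of the genotypes and transgenic against wild-type under paraquat, and Cx3cr1 kept its call in knock-out mice and the mean. Members called numbered 2 under paraquat in wild-type mice, 4 with array weights and 1 to 2 with single arrays left out. In knock-out mice array weights called 4 against 2, in transgenic mice 1 against 0 and in the mean 5 against 2. Transgenic against wild-type under saline gave 0, with 1 after quantile normalisation, 5 with array weights and 0 to 1 with single arrays left out. Under paraquat it gave 4, with 2 without a filter (12393 genes tested), 7 with array weights and 2 to 5 with single arrays left out. For the paraquat effect of transgenic minus wild-type the call of Mertk gave 1, and 0 with the replicate block, after quantile normalisation, without a filter, with only the arrays compared and without array 3 of both transgenic groups, and 0 to 1 with single arrays left out. The replicate block otherwise added Cx3cr1 in transgenic against wild-type under paraquat (adjusted p 0.0421) and changed no other call of a member. Every transgenic array but the second, and every wild-type array, correlated best with its own number, while knock-out arrays did not. Cx3cr1 minus the marker mean in transgenic mice was -0.12, and -0.36 without array 3 of both transgenic groups. Itgav in transgenic against wild-type under paraquat was -0.42, and 0.075 (adjusted p 0.71) with the mean of its probe sets, which disagree. The cause of the other changes was not tested. Counts over all genes moved more than those of members. Paraquat in knock-out mice called 188 genes, 2173 with array weights and 44 with only the arrays compared, with 63 to 614 over single arrays left out. In transgenic mice these were 0, 409, 0 and 0 to 6, and in wild-type mice 166, 1059, 849 and 82 to 351. The mean over genotypes called 407, 2263 with array weights and 260 to 656 over single arrays left out. Knock-out against wild-type called 1 gene under paraquat, 68 with array weights, 28 without array 3 of both transgenic groups and 1 to 12 over single arrays left out, and under saline 2, 241 with array weights and 108 with only the arrays compared. Transgenic against wild-type called 1578 under paraquat, 4129 with array weights and 829 to 2814 over single arrays left out. Under saline it called 529, 1165 after quantile normalisation, 4112 with array weights, 315 without array 3 of both transgenic groups and 109 to 1563 over single arrays left out. The effect of transgenic minus wild-type called 15, 7 with the replicate block, 687 with array weights and 4 to 34 over single arrays left out. With 3 pools a group, differences of members below the printed intervals were not detectable.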
